A study of Mus musculus with 12 samples.

Results

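The 10 genes described here encode the matrix of the tectorial membrane and the proteins that attach it to the spiral limbus and to the hair bundles, namely Tecta, Tectb, Ceacam16, Otog, Otogl, Otoa, Strc, Col11a1, Col11a2 and Col9a1. They were chosen by symbol, by what their proteins are known to do, and are 10 of the 55348 genes counted in each library. The measurements are RNA-seq counts from the organ of Corti of mice at postnatal day 21, with 3 libraries in each of 4 genotypes and 12 in all. Wild-type mice were compared with Clrn1-/- mice, in which exon 4 of Clrn1 was deleted from the embryo onward by a PGK-cre transgene that is active in all tissues, with Clrn2-/- mice, which carry the clarinet nonsense mutation of Clrn2 in every cell, and with Clrn1-/-Clrn2-/- mice, which carry both. The wild-type mice were bred separately and shared no litters with the mutants, so that breeding and genotype cannot be told apart in any comparison with wild-type. The tissue was dissected free of the stria vascularis and of the central core of the cochlea and frozen whole. In such bulk tissue, a different number of cells of a type and a different amount of RNA per cell cannot be told apart. The labels number the libraries 1 to 3 in each genotype without saying whether they come from separate animals, so that p-values measure the spread between these libraries.

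The tectorial membrane is a sheet of extracellular matrix that lies over the hair cells and is anchored at its inner edge to the spiral limbus. Collagen fibrils run through it, embedded in a striated sheet of glycoproteins built from the tectorins and CEACAM16, together with otogelin and otogelin-like. Otoancorin holds the membrane to the limbus, and stereocilin forms the links between the stereocilia of outer hair cells and the crowns by which their tallest stereocilia are attached to the membrane. Most of these proteins are secreted by supporting cells or by cells of the limbus, stereocilin being made by the hair cells. In mice, the tectorins are made mainly before hearing begins, while CEACAM16 is still made in the adult.

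Start-site windows from RefSeq on GRCm38.p6, covering 250 bases before and 50 after an annotated start, were found for 8 of the 10 genes, and not for Ceacam16 and Otogl. Windows of 4 genes are shown because their transcripts followed different courses over the genotypes. Otoa and Otog were highest in the double mutants, Tectb was highest on average in Clrn2-/-, and Tecta was at a low level in all 4 genotypes. Each is written 5′ to 3′ on the strand of its gene, and capitals mark matches, on either strand, to the SOX motif spelled ACAAAG, the GATA-factor motif spelled AGATAA, the nuclear receptor half-site spelled AGGTCA and the E-box spelled CACCTG, or on the gene's strand to the core box spelled TATAAA.
Otoa, chr7:121083174-121083473, plus strand: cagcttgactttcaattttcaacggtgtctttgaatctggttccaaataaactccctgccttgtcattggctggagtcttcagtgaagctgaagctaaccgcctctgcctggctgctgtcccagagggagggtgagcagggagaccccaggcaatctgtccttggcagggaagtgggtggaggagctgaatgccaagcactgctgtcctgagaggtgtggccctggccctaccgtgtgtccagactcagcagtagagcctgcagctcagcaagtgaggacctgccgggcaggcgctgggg
Otog, chr7:46240737-46241036, plus strand: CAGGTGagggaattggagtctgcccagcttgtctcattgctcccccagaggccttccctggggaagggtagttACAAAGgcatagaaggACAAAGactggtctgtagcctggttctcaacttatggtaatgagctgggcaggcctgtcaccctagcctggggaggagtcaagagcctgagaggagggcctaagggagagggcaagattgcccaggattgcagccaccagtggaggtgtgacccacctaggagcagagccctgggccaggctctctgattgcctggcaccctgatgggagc
Tectb, chr19:55180476-55180775, plus strand: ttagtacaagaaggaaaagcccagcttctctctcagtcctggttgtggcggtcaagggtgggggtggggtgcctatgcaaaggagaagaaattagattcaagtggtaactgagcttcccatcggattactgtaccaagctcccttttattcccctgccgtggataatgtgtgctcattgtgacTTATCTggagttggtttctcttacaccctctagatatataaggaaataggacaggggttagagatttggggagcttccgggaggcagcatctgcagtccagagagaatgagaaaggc
Tecta, chr9:42399898-42400197, minus strand: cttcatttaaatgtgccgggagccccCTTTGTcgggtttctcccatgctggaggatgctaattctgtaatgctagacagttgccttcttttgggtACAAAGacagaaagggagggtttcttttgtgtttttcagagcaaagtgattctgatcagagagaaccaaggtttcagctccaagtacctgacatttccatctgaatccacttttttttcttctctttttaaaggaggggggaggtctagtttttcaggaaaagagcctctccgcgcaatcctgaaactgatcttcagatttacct
Otog held 2 SOX motifs and 1 E-box, Tecta held 2 SOX motifs, Tectb held 1 GATA-factor motif, and the Otoa window matched none of these letters. Tecta has 2 annotated starts, and its other window, chr9:42401641-42401940, matched none of them either. No match overlapped another. Of all 32851 windows of this length, 18.7% held the SOX motif, 20.2% this E-box and 11.2% the GATA-factor motif. A match describes the letters of the window and is not a site of binding.

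Libraries held 30008679 to 41049302 counts on genes in the sense of the kit, and 19052 genes passed the filter on low counts, among them all 10 genes described here. Levels are given as CPM, a gene's counts relative to the total of its library, after scaling by TMM. Clrn1 was at 23.8 to 28.6 CPM in wild-type and 25.8 to 31.5 CPM in Clrn2-/-, against 2.69 to 3.04 CPM in Clrn1-/- and 1.77 to 2.71 CPM in Clrn1-/-Clrn2-/- libraries, as their labels say. Clrn2 was at 1.89 to 3.24 CPM in wild-type, 1.04 to 1.38 CPM in Clrn2-/- and 0.92 to 1.18 CPM in Clrn1-/-Clrn2-/- libraries, but at 0.85 to 1.04 CPM in Clrn1-/- libraries too. The level of Clrn2 thus separated the mutants from wild-type. For Clrn2, the Clrn1-/- libraries lay just below those of Clrn2-/-, without a difference by test (edgeR adjusted p = 0.25), while the level of Clrn1 separated these genotypes widely. No library was set aside.

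The genes differed widely in level when read per length, as CPM per kb of annotated exon. In wild-type, Ceacam16 was at 825 ± 68.2 (SD, n = 3, as for the other means here), followed by Col11a2 at 136 ± 11.3, Col9a1 at 19.7 ± 0.83, Otoa at 16.9 ± 2.03, Otog at 11.4 ± 1.00 and Col11a1 at 11.04 ± 0.32. Below these stood Tectb at 7.07 ± 0.61, Otogl at 6.21 ± 0.54, Strc at 3.598 ± 0.53 and Tecta at 0.413 ± 0.194. The ranges of the 3 libraries overlapped between the neighbours Col9a1 and Otoa, Otog and Col11a1, and Tectb and Otogl, so that these pairs were not separated beyond their spread. In Clrn1-/-Clrn2-/-, Otoa, at 51.0 ± 1.94 CPM per kb, stood above Col9a1, at 37.1 ± 4.36, and no neighbours overlapped. Ceacam16 alone made up 46.0% to 47.0% of the counts on the 10 genes in wild-type libraries and 60.1% to 61.1% in the double mutants. The sum of the 10 genes was 2755 to 3142 CPM in wild-type, 3439 to 3928 in Clrn1-/-, 3409 to 4239 in Clrn2-/- and 6088 to 6789 CPM in the double mutants.

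**Figure D1:**
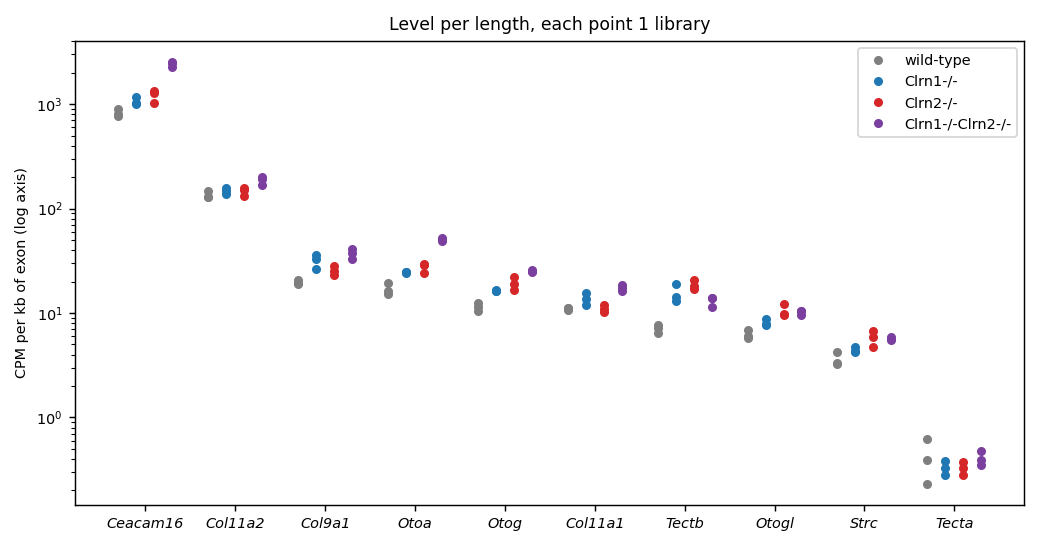
Level of each of the 10 genes per length (CPM per kb of exon, log axis), with 1 point per library and 1 color per genotype, ordered by the wild-type mean. Ceacam16 lies highest, at 825 CPM per kb in wild-type and 2423 in Clrn1-/-Clrn2-/- on average, and Tecta lowest in all genotypes.

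Over- and under-expression were called where the edgeR adjusted p was 0.05 or less and the fold change 1.5 or more, the thresholds of the study's own test. Against wild-type, 2 of the 10 genes were over-expressed in Clrn1-/- (Tectb and Col9a1), against 3.52% of all genes tested. In Clrn2-/-, 5 were over-expressed (Tectb, Otog, Otogl, Otoa and Strc), against 1.24% of all genes. In Clrn1-/-Clrn2-/-, 8 were over-expressed, all but Tecta and Col11a2, against 5.88% of all genes. None was under-expressed in any of the 3 mutants, against 3.70%, 1.42% and 4.02% of all genes. These comparisons share the wild-type libraries. By qRT-PCR of the double mutants, the study reports significant rises of Ceacam16, Otog and Col11a1 (its listed primers are for Col11a2). It reports no significant difference from wild-type for Tectb, Otogl and Strc.

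Without the fold minimum, 7 of the 10 genes were higher in Clrn1-/- (13.6% of all genes), 7 in Clrn2-/- (7.14%) and 9 in the double mutants (19.1%), and none was lower (13.3%, 7.07% and 17.9%). Every mutant library stood above every wild-type library for 8 genes in Clrn1-/- (20.5% of all genes), 7 in Clrn2-/- (14.6%) and 9 in the double mutants (25.0%), and none lay below (19.8%, 14.4% and 23.2%). The median log2 fold change of the 10 genes was 0.38 in Clrn1-/-, 0.62 in Clrn2-/- and 0.80 in the double mutants, while that of all genes tested was -0.0031, -0.0025 and 0.0010. The count in Clrn1-/- depended on single libraries. It was 4 without wild-type replicate 3, where Otoa was called over- and Tecta under-expressed, 3 without wild-type replicate 2, where Otog was added, and 1 without Clrn1-/- replicate 3, where Col9a1 was lost.

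**Figure D2:**
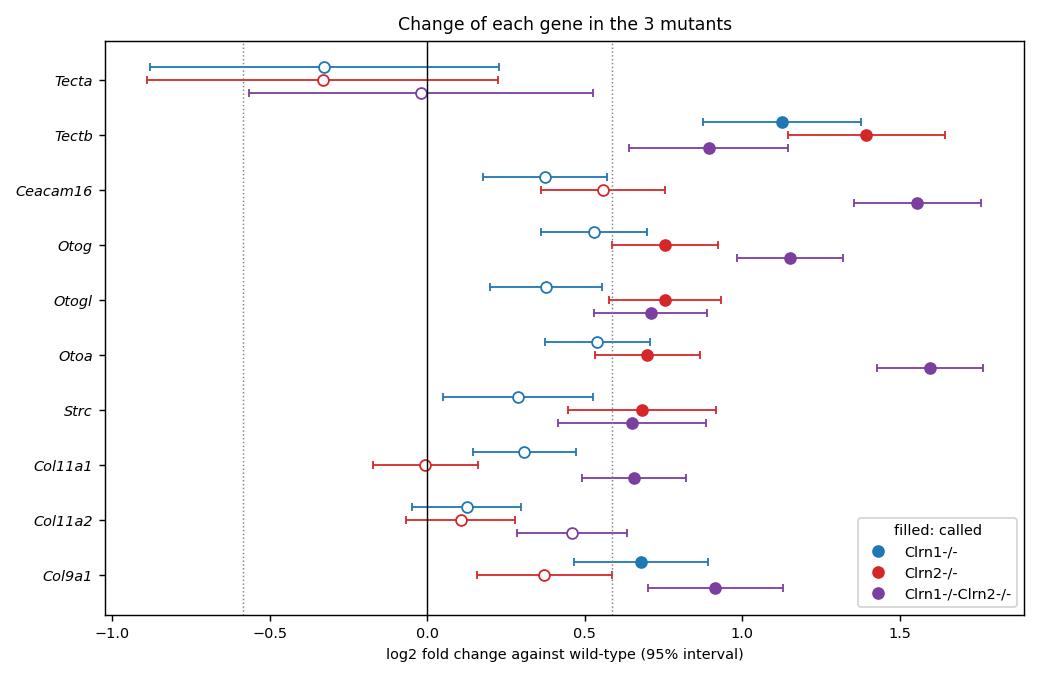
Log2 fold change of each gene against wild-type (horizontal axis, bars are 95% intervals) in Clrn1-/-, Clrn2-/- and Clrn1-/-Clrn2-/-, with filled points for called genes and dotted lines at 1.5-fold. Otoa and Ceacam16 reach 1.59 and 1.56 in the double mutants, while Tectb is highest in Clrn2-/- at 1.39.

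Of the 2 tectorins, Tectb (chr19:55180733-55196313) rose in all 3 mutants, while Tecta (chr9:42329619-42399929) was called in none with all 12 libraries. Beta-tectorin and alpha-tectorin are the zona pellucida-domain glycoproteins of the striated sheet. Tectb was at 24.4, 27.5 and 29.0 CPM in the wild-type libraries, 49.9, 54.7 and 71.9 in Clrn1-/-, 69.0, 65.5 and 78.3 in Clrn2-/-, and 43.9, 52.8 and 53.6 in Clrn1-/-Clrn2-/-. All 9 mutant libraries lay above all wild-type libraries, and those of the double mutants lay below all those of Clrn2-/-. The log2 fold change was 1.12 in Clrn1-/- (95% interval 0.87 to 1.38, edgeR adjusted p = 5.29e-06), 1.39 in Clrn2-/- (1.14 to 1.64, adjusted p = 2.67e-06) and 0.89 in Clrn1-/-Clrn2-/- (0.64 to 1.15, adjusted p = 2.15e-05). Between Clrn1-/-Clrn2-/- and Clrn2-/-, Tectb differed by -0.50 (-0.74 to -0.26, edgeR adjusted p = 0.0039), short of 1.5-fold.

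Tecta was counted with only 68 to 167 reads per library. It was at 2.89, 4.57 and 1.72 CPM in wild-type, 2.82, 2.07 and 2.44 in Clrn1-/-, 2.10, 2.42 and 2.75 in Clrn2-/-, and 3.57, 2.91 and 2.58 in Clrn1-/-Clrn2-/-. The wild-type libraries spanned the values of all mutants. Its log2 fold change was -0.33 in Clrn1-/- (95% interval -0.88 to 0.23), -0.33 in Clrn2-/- (-0.89 to 0.22) and -0.021 in the double mutants (-0.57 to 0.52). In the double mutants, changes of up to about 1.5-fold in either direction were thus not excluded, and in the single mutants larger falls were not. Its direction turned in all 3 mutants without wild-type replicate 2, to 0.086 in Clrn1-/-, 0.081 in Clrn2-/- and 0.38 in the double mutants. Without wild-type replicate 3 it was -0.62 in Clrn1-/- and called under-expressed (edgeR adjusted p = 0.036). The lowest values with 1 library left out were -0.63 in Clrn2-/- and -0.33 in the double mutants.

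Ceacam16 (chr7:19852097-19861299), which encodes an adhesion-type glycoprotein of the striated sheet, was the most abundant of the 10 genes. It was at 1303, 1267 and 1475 CPM in wild-type, 1638, 1672 and 1931 in Clrn1-/-, 2104, 1685 and 2163 in Clrn2-/-, and 3718, 4148 and 4020 in Clrn1-/-Clrn2-/-. The 3 mutants did not overlap with wild-type, and the double mutants lay far above both single mutants. In the double mutants it was 2.94-fold higher than in wild-type (log2 1.56, 1.35 to 1.76, edgeR adjusted p = 6.24e-09), 2.27-fold higher than in Clrn1-/- (adjusted p = 2.17e-07) and 2.00-fold higher than in Clrn2-/- (adjusted p = 2.12e-06). In the single mutants the rise stayed under 1.5-fold, at log2 0.37 in Clrn1-/- (edgeR adjusted p = 0.0071) and 0.56 in Clrn2-/- (adjusted p = 0.00083). Scaled by library size alone, and without Clrn2-/- replicate 2 or wild-type replicate 3, it passed 1.5-fold in Clrn2-/-, at 0.59, 0.66 and 0.63.

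The Ceacam16 gene shares 380 exon bases with Gm19345 on the opposite strand. Counts that ignore strand kept 56.9% to 62.8% of the stranded Ceacam16 counts, since reads on both genes are dropped as ambiguous. Ceacam16 was over-expressed in the double mutants in these counts as well.

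Both otogelins rose in all 3 mutants. Otog (chr7:46240987-46311434) encodes otogelin, a large mucin-like protein of the acellular membranes of the inner ear. Otog was at 107, 128 and 119 CPM in wild-type, 168, 173 and 169 in Clrn1-/-, 198, 172 and 227 in Clrn2-/-, and 262, 269 and 255 in Clrn1-/-Clrn2-/-. Its double mutant libraries lay above all the others, and its single mutants above wild-type. Its log2 fold change was 0.53 in Clrn1-/- (edgeR adjusted p = 0.00014, short of 1.5-fold), 0.75 in Clrn2-/- (adjusted p = 1.62e-05) and 1.15 in Clrn1-/-Clrn2-/- (0.98 to 1.32, adjusted p = 2.42e-08).

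Otogl (chr10:107760531-107912134) encodes the related otogelin-like protein. It was at 53.3, 50.5 and 59.6 CPM in wild-type, 66.7, 69.3 and 76.0 in Clrn1-/-, 84.3, 84.9 and 106 in Clrn2-/-, and 84.3, 91.4 and 91.3 in Clrn1-/-Clrn2-/-. Its double mutants thus overlapped with Clrn2-/- and lay above Clrn1-/-. The log2 fold change was 0.38 in Clrn1-/- (edgeR adjusted p = 0.0036), 0.75 in Clrn2-/- (adjusted p = 2.71e-05) and 0.71 in Clrn1-/-Clrn2-/- (adjusted p = 6.51e-06). Between the double mutants and Clrn2-/- it differed by -0.045, with a 95% interval of -0.22 to 0.13.

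Markers of supporting cells, which secrete most of this matrix, moved in the mutants as well. Of 14 markers tested, 4 were over-expressed in the double mutants (Etv5, Fgfr3, Gata3 and Lfng) and Prox1 was under-expressed, against 5.88% and 4.02% of all genes. Without the fold minimum 9 were higher and 1 lower (19.1% and 17.9%), and the median of the 14 was 0.36 (log2). In Clrn1-/- none was called (3.52% over and 3.70% under of all genes). Without the fold minimum 7 were higher (13.6%), among them Fgfr3 (0.57) and Etv5 (0.55), and 3 lower (13.3%), with a median of 0.16. In Clrn2-/- Etv5 was over-expressed (0.64, against 1.24% of all genes), and without the fold minimum 3 were higher and 2 lower (7.14% and 7.07%), with a median of 0.073. The summed level of the 14, like all marker sums scaled to library size without TMM, was 1491 to 1574 CPM in wild-type, 1444 to 1518 in Clrn1-/-, 1416 to 1579 in Clrn2-/- and 1857 to 1877 in Clrn1-/-Clrn2-/-, and none was at 0 in a genotype. Gjb2 and Gjb6, the gap junction connexins, were large terms of that sum, at 431 and 368 CPM in wild-type, 350 and 289 in Clrn1-/- and 383 and 307 in Clrn2-/- on average. The part of these differences in the levels of the matrix genes was not tested.

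The 2 attachment genes differed in how far they rose. Otoa (chr7:121081650-121163097) encodes otoancorin, which fixes the tectorial membrane to the limbus. Otoa was at 138, 128 and 162 CPM in wild-type, 210, 202 and 210 in Clrn1-/-, 243, 204 and 247 in Clrn2-/-, and 413, 436 and 444 in Clrn1-/-Clrn2-/-. The lowest double mutant library stood far above the highest single mutant library. In the double mutants it was 3.02-fold higher than in wild-type (log2 1.59, 1.43 to 1.76, edgeR adjusted p = 8.37e-10), 2.08-fold higher than in Clrn1-/- (adjusted p = 1.19e-07) and 1.86-fold higher than in Clrn2-/- (adjusted p = 1.07e-06). Otoa also rose in Clrn2-/- (log2 0.70, edgeR adjusted p = 3.11e-05), and in Clrn1-/- by 0.54 (adjusted p = 0.00011), which passed 1.5-fold with library size alone, at 0.59, and without wild-type replicate 3, at 0.64.

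Strc (chr2:121363728-121387168) encodes stereocilin, the protein of the attachment crowns. It was at 20.4, 20.7 and 26.2 CPM in wild-type, 26.7, 26.2 and 29.2 in Clrn1-/-, 36.4, 29.4 and 42.1 in Clrn2-/-, and 34.0, 36.6 and 35.1 in Clrn1-/-Clrn2-/-. The highest wild-type library lay just under the lowest of Clrn1-/-, and the double mutants lay within the range of Clrn2-/-. The log2 fold change was 0.68 in Clrn2-/- (edgeR adjusted p = 0.00066), 0.65 in Clrn1-/-Clrn2-/- (adjusted p = 0.00022) and 0.29 in Clrn1-/- (0.05 to 0.52, adjusted p = 0.069). Without Clrn2-/- replicate 3, the change in Clrn2-/- fell short of 1.5-fold, at 0.55.

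Strc being a hair cell transcript, general markers of hair cells stand beside it. Of 12 tested in the double mutants, 2 were over- and 2 under-expressed (5.88% and 4.02% of all genes). Without the fold minimum 4 were higher and 4 lower (19.1% and 17.9%), and the median of the 12 was 0.038 (log2). Their sum was 3577 to 3974 CPM in wild-type, 2855 to 3023 in Clrn1-/-, 3274 to 3810 in Clrn2-/- and 2457 to 2638 in Clrn1-/-Clrn2-/-, with none at 0. Most of that sum was Calb2, at 2806 ± 224 CPM in wild-type and 1692 ± 99.5 in the double mutants, and Pvalb, at 565 ± 43.5 and 394 ± 14.2, both of which neurons express too. Their part in the level of Strc was not tested.

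**Figure D3:**
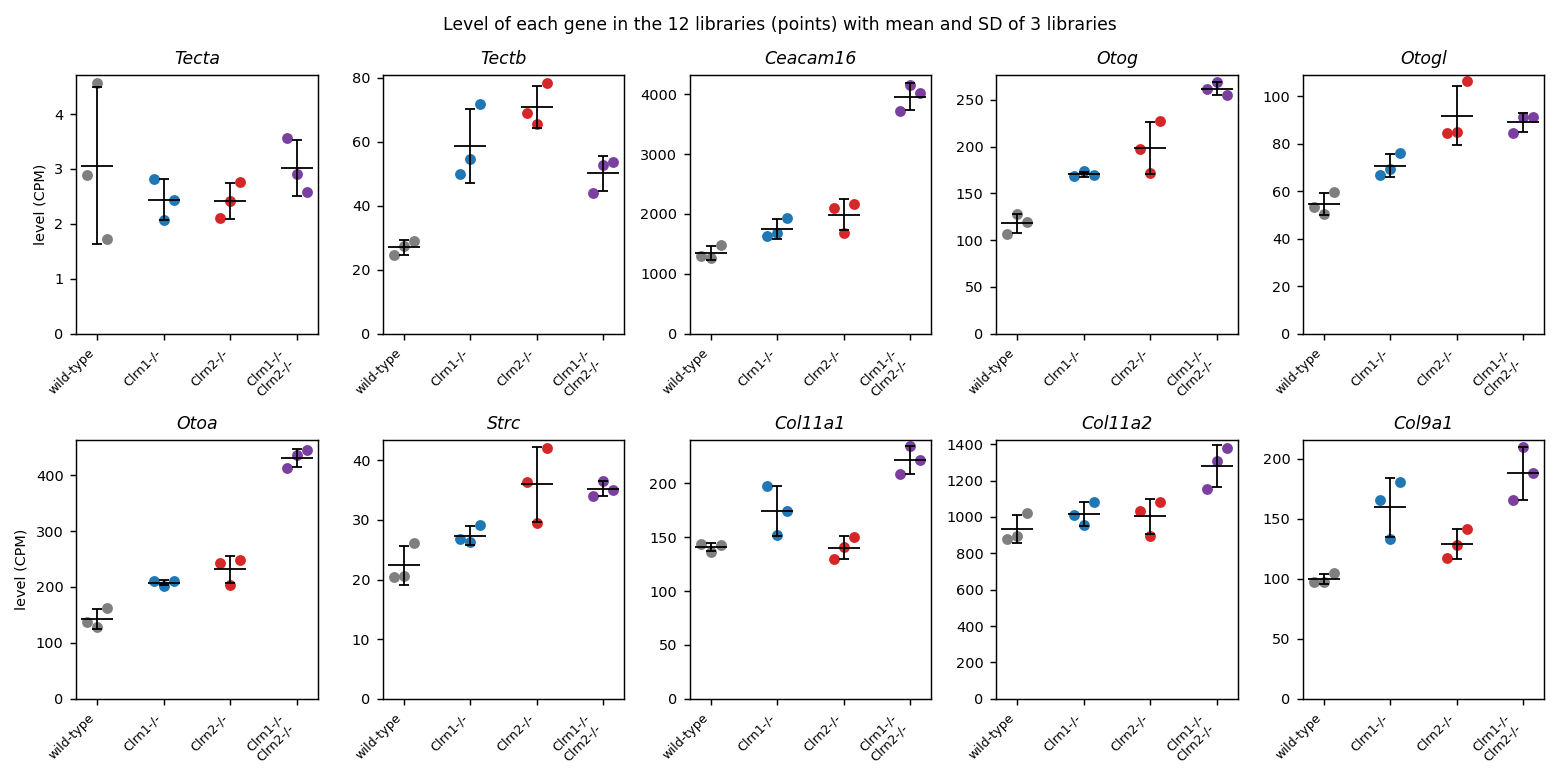
Level of each gene (CPM, axis from 0) in each of the 12 libraries by genotype, with the mean and SD of 3 libraries. Otoa, Otog and Ceacam16 show double mutant libraries above all others, while Tectb is highest on average in Clrn2-/- and Tecta overlaps in all genotypes.

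Of the 3 collagen genes, Col9a1 and Col11a1 were over-expressed in the double mutants and Col11a2 was not called in any mutant. Collagens IX and XI form the heterotypic fibrils of the membrane together with collagen II. Col9a1 (chr1:24177610-24252684) was at 97.0, 97.7 and 105 CPM in wild-type, 166, 133 and 181 in Clrn1-/-, 117, 128 and 142 in Clrn2-/-, and 166, 210 and 188 in Clrn1-/-Clrn2-/-. All its mutant libraries lay above wild-type. It rose by log2 0.68 in Clrn1-/- (edgeR adjusted p = 0.00014) and 0.91 in Clrn1-/-Clrn2-/- (adjusted p = 3.22e-06), and by 0.37 in Clrn2-/- (adjusted p = 0.022), short of 1.5-fold. Without Clrn1-/- replicate 3, the change in Clrn1-/- was 0.58 and no longer called.

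Col11a1 (chr3:114030540-114220718) was at 143, 136 and 143 CPM in wild-type, 197, 152 and 174 in Clrn1-/-, 130, 140 and 151 in Clrn2-/-, and 209, 235 and 221 in Clrn1-/-Clrn2-/-. The Clrn2-/- libraries overlapped with wild-type on both sides, and the double mutants lay above all others. The log2 fold change was 0.66 in Clrn1-/-Clrn2-/- (0.49 to 0.82, edgeR adjusted p = 6.53e-06), 0.31 in Clrn1-/- (adjusted p = 0.0079) and -0.0060 in Clrn2-/- (-0.17 to 0.16, adjusted p = 0.97). Col11a1 lies on the same chromosome as Clrn1, at a distance of 55.1 Mb.

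Col11a2 (chr17:34039437-34066685) was at 881, 895 and 1021 CPM in wild-type, 1013, 954 and 1083 in Clrn1-/-, 1034, 897 and 1079 in Clrn2-/-, and 1155, 1308 and 1381 in Clrn1-/-Clrn2-/-. Only the double mutants stood clear of wild-type. The difference was log2 0.46 (0.28 to 0.63, edgeR adjusted p = 0.00035), short of 1.5-fold, and 0.12 in Clrn1-/- (adjusted p = 0.29) and 0.11 in Clrn2-/- (adjusted p = 0.44).

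These collagens are also made by cartilage. Of 10 cartilage markers tested, Cnmd and Epyc were over- and Hapln1 and Ucma under-expressed in the double mutants (5.88% and 4.02% of all genes), and the median of the 10 was 0.10 (log2). The sum was 1084 to 1251 CPM in wild-type, 1186 to 1401 in Clrn1-/-, 1173 to 1373 in Clrn2-/- and 1727 to 1903 in Clrn1-/-Clrn2-/-, and no marker was at 0. Epyc, at 515 ± 57.3 CPM in wild-type and 1043 ± 61.9 in the double mutants, was the largest term of that sum. It is also on the list of other genes of the tectorial, otolithic and limbus matrix below, so that its level is not particular to cartilage. Of 9 fibroblast markers, 3 were over-expressed in Clrn1-/- and 3 in the double mutants (3.52% and 5.88% of all genes). Their sums were 1668 to 2034 CPM in wild-type, 2230 to 2476 in Clrn1-/-, 1937 to 2235 in Clrn2-/- and 2551 to 2750 in Clrn1-/-Clrn2-/-. The part of either cell type in the collagen levels was not tested.

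Between the single mutants, none of the 10 genes was called, against 2.40% of all genes over- and 2.34% under-expressed in Clrn1-/- relative to Clrn2-/-. Without the fold minimum, Otogl (-0.38, -0.55 to -0.20, edgeR adjusted p = 0.0049) and Strc (-0.39, -0.63 to -0.16, adjusted p = 0.020) were lower in Clrn1-/- than in Clrn2-/-. Col11a1 (0.31, edgeR adjusted p = 0.010) and Col9a1 (0.31, adjusted p = 0.043) were higher. These 4 compare with 9.51% of all genes higher and 8.99% lower. All libraries of Clrn1-/- lay above those of Clrn2-/- for Col11a1 (17.3% of all genes) and below them for Otogl and Strc (17.3%). With 1 to 2 genes of 10 in each direction, these counts are near the share of all genes.

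The double mutants were compared with each single mutant. Against Clrn1-/-, 3 genes were over-expressed (Ceacam16, Otog and Otoa, 4.62% of all genes) and none under-expressed (2.61%), and without the fold minimum 7 were higher (15.7%) and none lower (14.6%). All double mutant libraries lay above those of Clrn1-/- for 7 genes (23.6% of all genes) and below them for none (22.3%). Against Clrn2-/-, 3 were over-expressed (Ceacam16, Otoa and Col11a1, 3.67% of all genes) and none under-expressed (1.43%), and without the fold minimum 6 were higher (14.4%) and Tectb was lower (13.2%). All double mutant libraries lay above those of Clrn2-/- for the same 6 (21.6% of all genes) and below them for Tectb (20.8%). Ceacam16 and Otoa were over-expressed in the double mutants against all 3 other genotypes. Strc differed between the double mutants and Clrn2-/- by -0.031, with a 95% interval of -0.26 to 0.20. These 2 comparisons share the double mutant libraries.

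The interaction of the genotypes asks whether the change in the double mutants departs from the sum of the log2 changes in the single mutants. Ceacam16 exceeded that sum and Tectb fell short of it, and these 2 genes were called, against 3.58% of all genes above and 1.92% below. For Tectb the single mutants summed to 2.52 and the double mutants reached 0.89, an interaction of -1.63 (-1.97 to -1.28, edgeR adjusted p = 1.08e-05). For Ceacam16 the sum was 0.93 and the double mutants reached 1.56, an interaction of 0.62 (0.35 to 0.90, edgeR adjusted p = 0.0039).

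Without the fold minimum, the interaction was also positive for Otoa (0.36, edgeR adjusted p = 0.035) and Col11a1 (0.35, adjusted p = 0.036) and negative for Otogl (-0.42, adjusted p = 0.021), so that 3 genes were above the sum and 2 below, against 9.32% and 8.06% of all genes. For Otog (-0.13, -0.37 to 0.10) and Col9a1 (-0.14, -0.44 to 0.17) the double mutants lay within error of the sum. The intervals of Tecta, Strc and Col11a2 also included 0. The call of Ceacam16 was lost without wild-type replicate 3 (0.55), Clrn1-/- replicate 1 (0.58) or Clrn2-/- replicate 2 (0.52), each short of 1.5-fold with an edgeR adjusted p of 0.0057, 0.012 and 0.0078.

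**Figure D4:**
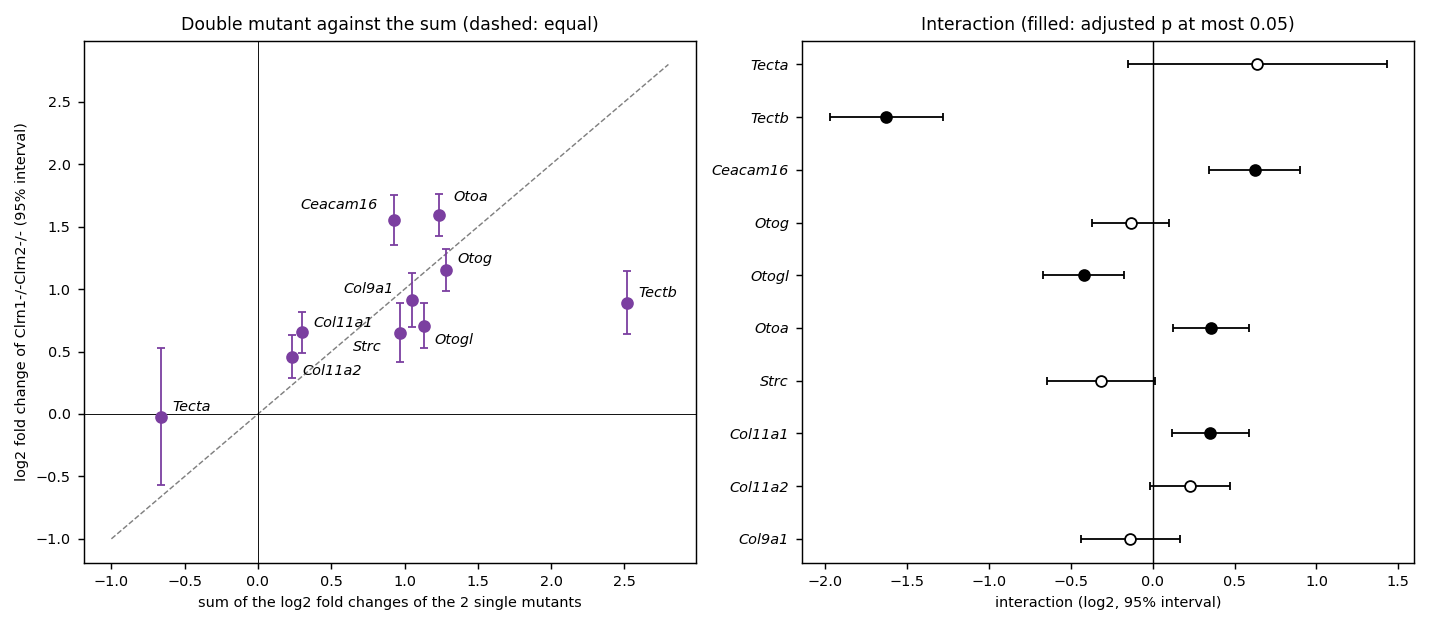
Left, log2 fold change of each gene in Clrn1-/-Clrn2-/- (vertical, 95% interval) against the summed change of both single mutants (horizontal), with the dashed line where both are equal; right, the interaction of each gene with its 95% interval. Tectb lies far below the line, at 2.52 against 0.89, and Ceacam16 lies above it, at 0.93 against 1.56.

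Ratios of counts within a library do not depend on how libraries are scaled. The ratio of Otoa to Strc was 6.17 to 6.78 in wild-type, 7.20 to 7.87 in Clrn1-/-, 5.88 to 6.91 in Clrn2-/- and 11.9 to 12.7 in Clrn1-/-Clrn2-/-. Genotype accounted for 97.0% of the variance of its log2 values (exact permutation test over 15400 partitions of the libraries, p = 0.00097, adjusted over 5 ratios 0.0049). The attachment gene of the limbus thus rose more than that of the hair bundle in the double mutants, and the ratio in Clrn2-/- overlapped with that in wild-type. The ratio of Otogl to Otog was 0.396 to 0.4996 in wild-type and 0.322 to 0.358 in the double mutants, below every other library (exact permutation test, p = 0.012, adjusted 0.031).

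The ratio of Tectb to Tecta was 6.01 to 16.9 in wild-type, 17.7 to 29.4 in Clrn1-/-, 27.1 to 32.9 in Clrn2-/- and 12.3 to 20.8 in the double mutants (exact permutation test, p = 0.021, adjusted 0.031). All single mutant libraries lay above all wild-type libraries, and the double mutants overlapped with wild-type. Ceacam16 to Tecta was 277 to 857 in wild-type and 1041 to 1559 in the double mutants (exact permutation test, p = 0.025, adjusted 0.031), and its unadjusted p was 0.067 and 0.074 without double mutant replicate 2 or 3. Col11a2 to Col11a1 was 6.15 to 7.14 in wild-type, and its genotypes were not separated (exact permutation test, p = 0.066), with an unadjusted p of 0.033 without Clrn2-/- replicate 2.

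**Figure D5:**
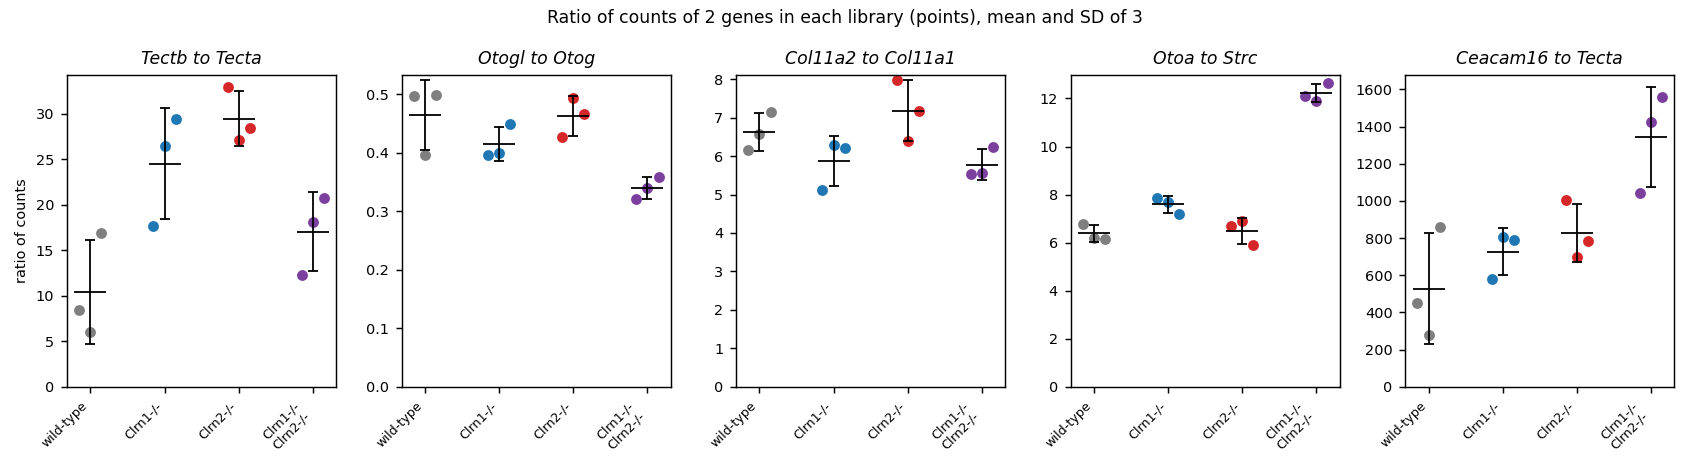
Ratio of the counts of 2 genes in each library (points, axis from 0) by genotype, with the mean and SD of 3 libraries. Otoa to Strc is 11.9 to 12.7 in Clrn1-/-Clrn2-/- and at most 7.87 elsewhere, and Otogl to Otog is lowest in the double mutants.

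Over the 12 libraries, the log2 levels of the genes moved with each other to different degrees, which includes the differences between genotypes. Among the 36 pairs without Tecta, Pearson's r had a median of 0.80 and ranged from 0.17 (Tectb with Col11a1) to 0.99 (Ceacam16 with Otoa). With each genotype centred on its own mean, the median was 0.62 and all 36 were above 0. Libraries share their scaling, and r is given as a description.

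Among the 10954 genes that averaged 10 CPM or more, those most like Ceacam16 were Cldn9, P2rx2 and Fblim1, with r of 0.99 each. The closest to Otoa were Tspan8, Mal2 and Epcam, with r of 1.00, 1.00 and 0.99, and the closest to Otog were Tnfrsf12a, Mmp28 and Cpxm2, with r of 0.98 each. Tectb was followed most closely by Galnt11, Adss and Isg20l2, with r of 0.99, 0.97 and 0.96. Strc was followed by Lcp1, Otogl and Ocm, with r of 0.98, 0.96 and 0.96. Epcam, an epithelial adhesion molecule, went from 59.9 CPM in wild-type to 174 in the double mutants on average, and Tspan8 from 42.3 to 148. The closest genes named here differed for each of Ceacam16, Otoa, Otog, Tectb and Strc. Those of Ceacam16, Otoa and Otog shared no gene with each other either, so that the lack of overlap does not divide these genes into groups.

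Of 17 other genes of the tectorial, otolithic and limbus matrix tested, 6 were over- and 2 under-expressed in the double mutants (5.88% and 4.02% of all genes), and their median was 0.35 (log2). The steepest was Otol1, which encodes the otolith protein otolin, at 4.35 ± 1.83 CPM in wild-type and 29.1 ± 2.39 in the double mutants (log2 2.74, edgeR adjusted p = 1.10e-08). Epyc, the proteoglycan epiphycan, rose by 1.02 (adjusted p = 1.06e-06) and Col5a1, a fibrillar collagen, by 0.62 (adjusted p = 2.78e-06). The other 3, Emilin2, Oc90 and Col2a1, were named after their values were seen. Otos, which encodes otospiralin, fell by 0.77 (adjusted p = 0.00058) and Vit, which encodes vitrin, by 0.59 (adjusted p = 0.0011).

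In each single mutant, Otol1 was over-expressed (3.52% of all genes in Clrn1-/- and 1.24% in Clrn2-/-), at 15.02 CPM in Clrn1-/- and 11.1 CPM in Clrn2-/- on average, with Col2a1 over-expressed in Clrn1-/-. Otos and Coch, the latter also named after its values were seen, were under-expressed in both (3.70% and 1.42% of all genes). The collagens of the list that were not called in the double mutants, Col9a2, Col9a3 and Col5a2, had log2 fold changes of 0.50, 0.35 and 0.43.

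Of 11 genes of the attachment crown and the links between stereocilia, 3 were over- and 1 under-expressed in the double mutants (5.88% and 4.02% of all genes), with a median log2 fold change of -0.031. Pcdh15, a cadherin of the tip link, rose by 0.98 (edgeR adjusted p = 2.33e-07), Ptprq, a phosphatase-like protein of the shaft connectors, by 0.96 (adjusted p = 7.37e-05), and Pkhd1l1, a protein of the stereociliary coat, by 0.87 (adjusted p = 0.0031). Pdzd7, a scaffold of the ankle links, fell by 0.91 (adjusted p = 5.64e-07). By qRT-PCR of the double mutants, the study reports significant rises of Pcdh15 and Ptprq and no significant difference for Pdzd7. In the single mutants, Cdh23 alone was under-expressed in Clrn1-/- (3.70% of all genes) and none over-expressed (3.52%), and in Clrn2-/- Loxhd1 was over- and Whrn under-expressed (1.24% and 1.42%). These 3 were named after their values were seen.

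Markers of some further cell types in the dissected tissue also differed between the double mutants and wild-type. Of all genes, 5.88% were over- and 4.02% under-expressed in that comparison. Neuron markers summed to 10836 to 11532 CPM in wild-type and 7439 to 7570 CPM in the double mutants, with 2 of 10 over- and 3 under-expressed. Macrophage markers, 3 of 6 over-expressed, went from 104 to 138 CPM to 168 to 200 CPM, and red blood cell markers, 2 of 5 under-expressed, from 674 to 1126 CPM to 537 to 726 CPM. All 5 red blood cell markers were under-expressed in both single mutants (3.70% and 1.42% of all genes), with sums of 281 to 381 CPM in Clrn1-/- and 423 to 645 CPM in Clrn2-/-. Of the stria vascularis, 3 of 8 markers were under-expressed, of bone 1 of 8 was over- and 1 under-expressed, of skeletal muscle 1 of 6 was under-expressed, and of inner hair cells (6) and myelin (6) none was called. With 1 gene in a direction, the counts of bone and skeletal muscle are near the share of all genes. No marker was at 0 in any genotype. The part of these cells in the levels of the 10 genes was not tested.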

How the data were processed

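RNA-seq libraries of polyadenylated, strand-specific RNA from the organ of Corti were analysed for 12 samples, grouped by the genotype in their labels. The deposited values are whole-number counts of each gene, obtained by the authors with STAR on GRCm38 (release p6 per the labels) without normalization, filtering or pooling. The column in the orientation of the kit was used, which held 95.2% to 95.6% of stranded counts. Totals of unassigned reads, 13.5% to 15.8% of the total, were left out. Coordinates and exon lengths came from Gencode M21 of the same build, in which all 10 genes matched once.

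Comparisons used edgeR 4.0.16 under R 4.3.3 (filterByExpr with a minimum count of 10, TMM, all 12 libraries in 1 fit with genotype alone, quasi-likelihood test, Benjamini-Hochberg adjustment over 19052 genes). The common coefficient of variation between replicates was 6.15%. The 12 pairs of libraries of 1 genotype differed by 4.14 to 17.4 times the variance of counting alone, so no library was counted as deposited again, which does not say whether they share an animal. Ratios were tested by exact permutation of the share of variance between the 4 genotypes in Python 3.11.15. The scripts were tested on simulated data. Alternatives were limma-voom, DESeq2 1.42.0, other scaling, no filter, fits to only the genotypes compared, a block for replicate number, counts that ignore strand, no fold minimum and each library left out.

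Same-numbered libraries correlated above 0.1 in their deviations from the genotype means in 7 of 18 pairs (12453 genes, -0.28 to 0.30). All 3 such pairs of wild-type and Clrn1-/- did (0.27, 0.13 and 0.10). Differently numbered libraries ranged from -0.45 (wild-type 3 with Clrn1-/-Clrn2-/- 1) to 0.39 (wild-type 3 with Clrn2-/- 1). These values therefore do not show that the numbers pair the libraries, and the labels do not say so.

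The genes, the lists and the tests were chosen with earlier results of these data known. The genes named are the 10, the 3 closest to each of Ceacam16, Tectb, Otog, Otoa and Strc by Pearson correlation of log2 CPM over genes that averaged 10 CPM or more, up to 3 called per direction and list in the double mutants by lowest p, Clrn1 and Clrn2, and markers where a result turns on them. The list of outer hair cell markers is not reported here.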

Additional observations from a re-analysis of the deposited data

Results flagged for a closer look

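In 5 genes the effect of 1 genotype differed with the other genotype by the test of the interaction (edgeR, adjusted p at most 0.05). The interaction was -1.63 (log2) for Tectb and -0.42 for Otogl, whose double mutants fell short of the sum of the single mutants, and 0.62 for Ceacam16, 0.36 for Otoa and 0.35 for Col11a1, whose double mutants exceeded it.

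Counts on the strand opposite to the gene, which no comparison used, made up a slightly larger share of the stranded counts in some mutants than in any wild-type library. For Col11a1 this share was 0.307% on average in Clrn1-/-, 0.310% in Clrn2-/- and 0.295% in the double mutants, and for Col9a1 it was 0.387% in Clrn1-/-Clrn2-/-. The share was smaller in the double mutants than in wild-type for Strc (1.52% to 1.80%, against 4.78% to 5.16%) and for Ceacam16 (0.420% to 0.458%, against 0.680% to 0.719%). Scaled to library size without TMM, these counts fell for Strc, from 1.08 to 1.27 CPM in wild-type to 0.54 to 0.63 CPM. For Ceacam16 they rose, from 8.84 to 9.72 CPM to 17.4 to 17.6 CPM, less than the counts on the strand of the gene. The cause was not tested.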

How the results depend on the processing

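The count of over-expressed genes in Clrn1-/-Clrn2-/- against wild-type was 8 under each alternative but the adjusted p alone, which gave 9. Without the fold minimum, the counts called became 7 in Clrn1-/- against wild-type, 4 between the single mutants, 7 in the double mutants against each single mutant and 5 for the interaction. With the replicate number as a block, the counts of calls stayed at 2, 5 and 8 against wild-type, 0 between the single mutants, 3 and 3 in the double mutants against the single mutants and 2 for the interaction. With library size alone, 3 genes were called in Clrn1-/- and 6 in Clrn2-/- against wild-type. With 1 library left out, the counts ranged from 1 to 4 in Clrn1-/-, 4 to 6 in Clrn2-/- and 8 to 8 in the double mutants against wild-type, 3 to 4 in the double mutants against Clrn2-/-, and 1 to 2 for the interaction. The share of variance between genotypes then ranged from 49.8% to 68.3% for Col11a2 to Col11a1 and from 57.5% to 86.0% for Ceacam16 to Tecta.

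Log2 fold changes turned in direction only in comparisons without a call. For Tecta, the double mutants against wild-type were at 0.079 with limma-voom, 0.018 with library size alone and 0.0035 with the replicate block, and Clrn1-/- against Clrn2-/- was at -0.00094 with limma-voom and -0.014 with counts that ignore strand. For Col11a1, Clrn2-/- against wild-type was at 0.029 with library size alone and 0.00036 with the 2 genotypes alone. With 1 library left out, Tecta ranged from -0.62 to 0.086 in Clrn1-/-, -0.63 to 0.081 in Clrn2-/- and -0.33 to 0.38 in the double mutants against wild-type, and from -0.10 to 0.11 between the single mutants. Col11a1 then ranged from -0.062 to 0.048 in Clrn2-/- against wild-type and Col11a2 from -0.056 to 0.071 between the single mutants. The double mutants against Clrn2-/- ranged from -0.10 to 0.075 for Otogl and -0.15 to 0.10 for Strc. The cause was not tested. Tecta had the fewest counts, 68 to 167 per library, and its wild-type libraries spread from 1.72 to 4.57 CPM.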
